A study of Mus musculus with 8 samples.

Results

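Genes of the cell division cycle were compared between CD11b+ cells of anti-LIF treated and control mice. The set was chosen by gene name, with earlier results of these data known. It held 44 genes, of which 43 were measured among the 22180 genes tested. Of the 44 genes, 15 act in DNA replication or entry into S phase, 23 act in mitosis, 2 encode transcription factors of the cycle, 3 encode D-type cyclins and 1 encodes a CDK inhibitor. Ccne2, a cyclin of S-phase entry, had only an array feature that it shares with another gene, so it was not used here. The cells were taken with magnetic beads from the ascites of female C57BL/6 mice that carried tumors of ID8. This line was derived from mouse ovarian epithelium and was grown here in the peritoneum. For ID8 the methods describe both dissociated tumors and collected ascites, and name a cell suspension as the source of the CD11b+ cells. In 4 mice (replicates 5 to 8) a neutralizing antibody to the cytokine LIF was given, by the labels from day 12 after inoculation, for 25 days. A figure legend of the study gives a later start day for ID8 mice. The other 4 mice (replicates 1 to 4) were controls, which the labels call untreated and the methods describe as given control IgG. All mice were 8 weeks old at inoculation, and each mouse gave 1 array. CD11b is carried by macrophages, monocytes, granulocytes and some lymphocytes, so the beads did not select a single cell type, and ID8 is a single tumor line.

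A dividing cell first copies its DNA and then separates the copies. Cyclins bound to CDKs drive both steps. D-type cyclins act early and release E2F factors from the RB1 protein, E2F factors switch on replication genes, and FOXM1 and MYBL2 later switch on mitosis genes. CDK inhibitors such as p21, the product of Cdkn1a, hold the cycle back. Tissue macrophages can divide locally, whereas mature neutrophils do not.

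The values were log2 intensities from RMA, a method that corrects, normalizes and summarizes the probes of each array, and with 4 arrays a group their number limits what can be resolved. Correlations over all features were 0.963 to 0.970 among anti-LIF arrays, 0.960 to 0.974 among control arrays and 0.935 to 0.964 between the groups. Itgam, which encodes CD11b, averaged 8.49 in anti-LIF and 8.67 in control cells and was not called different (limma adjusted p = 0.590). Over all genes tested, 5.79% were higher and 11.0% were lower in anti-LIF cells. Of 9 myeloid markers 0 were higher and 6 were lower. Their median level was 8.47, and of all genes with a mean value between 8 and 9, 36.2% were lower. The summed linear level of the myeloid markers was 5312 to 6027 on anti-LIF and 7067 to 10446 on control arrays. Of 13 tumor and mesothelial markers 3 were higher and 2 were lower, and the other 8 did not pass. The higher ones were Muc16 (log2 fold change 1.88), Upk1b (0.78) and Lrrn4 (0.74), and the lower ones Krt18 (-0.69) and Krt19 (-0.40). The summed level of the 13 was 5643 to 6934 on anti-LIF and 5013 to 6477 on control arrays. Over all arrays Upk3b (9.87), Krt18 (9.82) and Wt1 (9.53) had mean values above that of Itgam (8.58). Of 9 T and NK cell markers 3 were higher, with a summed level of 165 to 227 on anti-LIF and 124 to 141 on control arrays. B and plasma cell markers held 1 higher gene, Jchain, and 1 lower gene, Xbp1, of 6, mast cell markers held 1 higher gene, Cpa3, of 4, and granulocyte precursor markers held 0 of 5. The part of these cell types in the results that follow was not tested, and in bulk samples fewer cells of a type and less RNA per cell cannot be told apart.

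Most cell cycle genes lay slightly above control in anti-LIF cells, and those that passed the test were mainly mitosis genes. Of the 43 measured genes 9 were higher, 2 lower and 32 not past the threshold (limma, adjusted p under 0.1 over all genes). Over all 22180 genes, 5.79% were higher and 11.0% were lower. The median log2 fold change was 0.23 over the 43 genes and 0.03 over all genes. The change was positive in 37 of the 43 genes, against 12007 of all 22180. All 4 anti-LIF mice lay above all 4 control mice for 9 genes and below them for 2 genes, against 6.53% and 11.9% of all genes. Among genes with a mean value between 5 and 6, the band that held 19 of the 43, 7.45% were higher and 13.8% were lower, with a median of -0.06. Lower calls were more frequent at high levels: 0.77% of genes under 4 were lower, against 36.2% of those between 8 and 9, where Pcna lies, and 37.6% of those above 9, where Cdkn1a lies. The median over all genes was 4.64 to 4.65 on anti-LIF arrays and 4.55 to 4.60 on control arrays. Centring each array on its own median left 3.99% of all genes higher and 14.5% lower. Of the cell cycle genes, 7 were then higher and 2 lower. The centred median change was 0.30 for mitosis genes, 0.069 for replication genes and 0.048 for D-type cyclins. Without centring these medians were 0.37, 0.14 and 0.12.

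**Figure D1:**
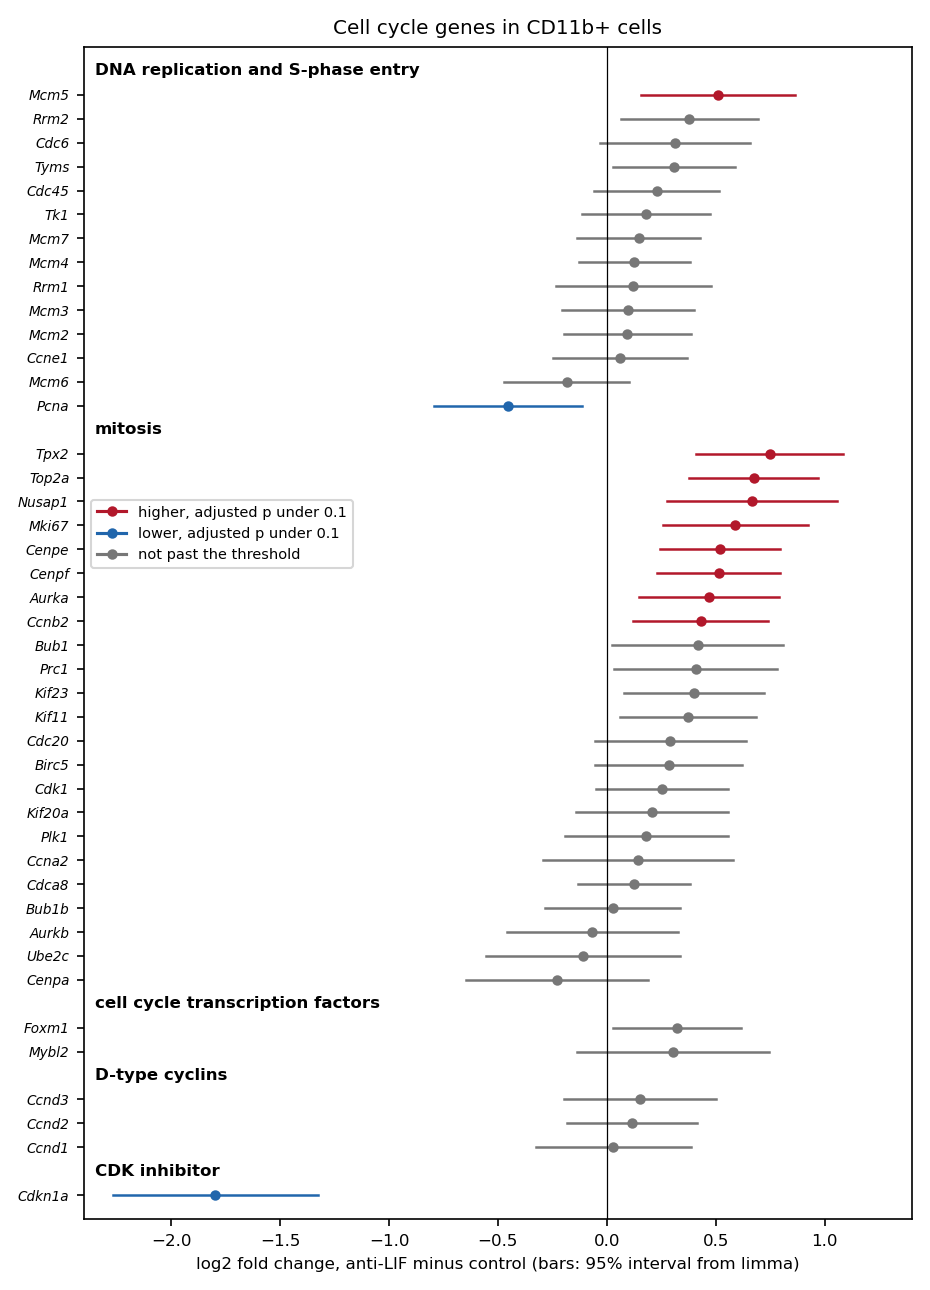
Log2 fold change (anti-LIF minus control, x axis) of the 43 measured cell cycle genes, in rows by role; points are limma estimates and bars their 95% intervals, coloured by the call at an adjusted p of 0.1. The 8 higher mitosis genes lie between 0.43 and 0.75, and Cdkn1a stands apart at -1.80.

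Mitosis genes held 8 of the 9 higher genes. In this list of 23, 8 were higher (34.8%, against 5.79% of all genes), 0 lower and 15 not past the threshold. A positive change was found in 20, and the median was 0.37. Tpx2, which builds the spindle and activates Aurora A, had 5.77, 5.58, 5.25 and 5.73 in anti-LIF replicates 5 to 8, against 4.80, 4.74, 5.12 and 4.69 in control replicates 1 to 4. The groups did not overlap, and the change was 0.75 on the log2 scale (SE 0.15, 1.68-fold, limma adjusted p = 0.0125). Top2a, the topoisomerase that untangles the copied chromosomes, had 6.83, 6.89, 6.62 and 6.72 in anti-LIF mice and 6.29, 5.95, 5.90 and 6.22 in control mice. Every anti-LIF value was above every control value, by a log2 change of 0.67 (SE 0.13, limma adjusted p = 0.0112). Nusap1, a spindle microtubule binding protein, had 5.27, 5.23, 5.13 and 5.43 in anti-LIF mice and 4.46, 4.27, 5.14 and 4.53 in control mice. Control replicate 3 reached the anti-LIF range, and the change was 0.67 (SE 0.18, limma adjusted p = 0.0366). Mki67, the source of the Ki-67 proliferation antigen, had 6.67, 7.02, 6.56 and 6.82 in anti-LIF mice and 6.25, 5.89, 6.42 and 6.14 in control mice. The groups were separate, with a change of 0.59 (SE 0.15, limma adjusted p = 0.0317).

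The kinetochore genes Cenpe and Cenpf were both higher. Cenpe, a motor that aligns chromosomes, had 5.86, 5.78, 5.57 and 5.63 in anti-LIF mice and 5.07, 5.09, 5.28 and 5.32 in control mice. Cenpf had 5.87, 5.65, 5.58 and 5.72 in anti-LIF mice and 5.29, 4.96, 5.27 and 5.24 in control mice. Neither gene overlapped between the groups, and the changes were 0.52 (SE 0.13, limma adjusted p = 0.0248) for Cenpe and 0.51 (SE 0.13, limma adjusted p = 0.0286) for Cenpf. Aurka, the Aurora A kinase of the spindle poles, had 5.62, 5.51, 5.59 and 5.08 in anti-LIF mice and 5.15, 4.89, 4.96 and 4.93 in control mice. The lowest anti-LIF mouse, replicate 8, lay within the control range, and the change was 0.47 (SE 0.15, limma adjusted p = 0.0645). Ccnb2, a B-type cyclin that acts with Cdk1 at entry into mitosis, had 6.27, 5.95, 6.01 and 5.92 in anti-LIF mice and 5.85, 5.36, 5.60 and 5.63 in control mice. The groups did not overlap, and the change was 0.43 (SE 0.14, limma adjusted p = 0.0766). The calls of Aurka and Ccnb2 lay near the threshold, and each was lost when any 1 of several mice was left out. Aurka was lost without anti-LIF replicate 5, 6 or 7 or control replicate 2, 3 or 4 (0.41 to 0.46, adjusted p 0.122 to 0.149), and Ccnb2 was lost without any 1 mouse but control replicate 1 (0.35 to 0.47, adjusted p 0.102 to 0.190).

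**Figure D2:**
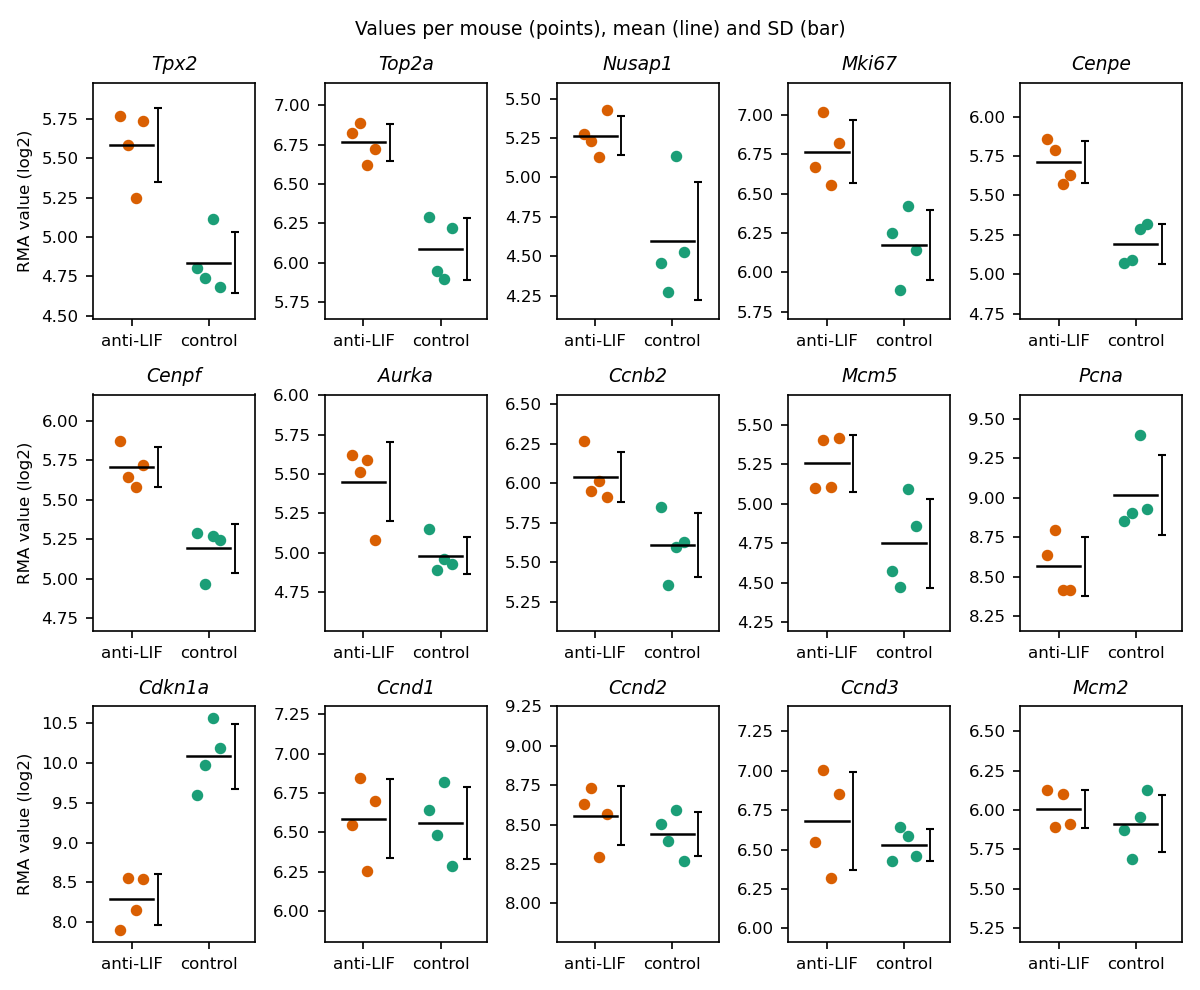
Log2 RMA value (y axis) of cell cycle genes in each mouse, anti-LIF mice left and control mice right in each panel; points are single arrays, lines group means and bars the SD. The groups are apart for Tpx2, Top2a and Cdkn1a, and overlap for the D-type cyclins.

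The other 15 mitosis genes changed by -0.23 to 0.42 (limma adjusted p 0.109 to 0.926), 12 of them positive. The nearest to the threshold was Kif23, a motor of the central spindle, at 0.40 (SE 0.15, adjusted p = 0.109). Bub1, a checkpoint kinase, had 0.42 with an adjusted p of 0.162. The 3 negative genes were Aurkb (-0.07), a kinase of the chromosomal passenger complex, Ube2c (-0.11), a ubiquitin-conjugating enzyme of mitotic exit, and Cenpa (-0.23), the histone variant of centromeres. The factors Foxm1 (0.32, limma adjusted p = 0.149) and Mybl2 (0.30, adjusted p = 0.363) did not pass the test, although all anti-LIF mice were above all control mice for Foxm1.

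Promoters of mitosis genes are known to carry CHR and CCAAT elements, and those of replication genes E2F sites. The 250 bases before the start are shown for 4 of the higher mitosis genes to let these letters be seen in place (RefSeq, GRCm38.p6, 5′ to 3′ on the gene's strand). Capitals mark CHR (TTTGAA or TTCGAA) and CCAAT on either strand.
Top2a (chr11:99024190-99024439, minus strand): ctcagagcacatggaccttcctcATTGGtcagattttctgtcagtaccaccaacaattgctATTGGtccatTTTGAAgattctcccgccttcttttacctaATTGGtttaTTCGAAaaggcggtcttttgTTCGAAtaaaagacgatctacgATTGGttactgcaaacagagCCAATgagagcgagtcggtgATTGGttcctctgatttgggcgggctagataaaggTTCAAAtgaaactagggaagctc
Nusap1 (chr2:119618048-119618297, plus strand): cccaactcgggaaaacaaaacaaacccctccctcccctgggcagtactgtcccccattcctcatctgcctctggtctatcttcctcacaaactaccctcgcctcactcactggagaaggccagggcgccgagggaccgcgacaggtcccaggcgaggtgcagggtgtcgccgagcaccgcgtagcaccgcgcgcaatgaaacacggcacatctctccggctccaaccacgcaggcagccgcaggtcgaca
Mki67 (chr7:135716380-135716629, minus strand): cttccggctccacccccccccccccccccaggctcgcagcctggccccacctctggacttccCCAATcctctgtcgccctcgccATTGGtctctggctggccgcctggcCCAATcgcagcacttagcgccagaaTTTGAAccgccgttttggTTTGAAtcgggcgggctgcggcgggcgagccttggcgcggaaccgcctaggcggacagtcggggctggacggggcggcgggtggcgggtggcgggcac
Cenpe (chr3:135212313-135212562, plus strand): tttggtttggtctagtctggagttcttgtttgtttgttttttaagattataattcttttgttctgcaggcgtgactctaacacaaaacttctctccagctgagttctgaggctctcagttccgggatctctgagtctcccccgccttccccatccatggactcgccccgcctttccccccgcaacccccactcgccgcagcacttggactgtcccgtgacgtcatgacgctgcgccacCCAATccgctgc

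The Top2a stretch held 4 CHR and 6 CCAAT matches, that of Mki67 held 2 and 3, that of Cenpe held 0 and 1, and that of Nusap1 held 0 of either. Of the 44 genes 35 had an entry in the promoter table, and Tpx2 did not have a single one. In the window from 250 bases before to 50 after the start, CHR was found in 17 of 20 mitosis promoters (85.0%), in 3 of 14 replication promoters (21.4%) and in 19.2% of all 32851 promoters. CCAAT was found in 90.0%, 71.4% and 37.4% of these 3 sets. E2F letters (TTTCCCGC, TTTGGCGC or TTTCGCGC, both strands) were found in 5.00% of mitosis promoters, 35.7% of replication promoters and 1.84% of all. Of the 7 promoters of higher mitosis genes, 5 held CHR and 6 held CCAAT. These matches are a description of the letters, not of binding.

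DNA replication genes passed the test at shares near those of all genes. Of the 14 measured, 1 was higher (7.14%) and 1 lower (7.14%), against 5.79% and 11.0% of all genes. The other 12 were not past the threshold. A positive log2 change was found in 12 and a negative one in 2, and the median was 0.14. Mcm5, a subunit of the replicative helicase, had 5.10, 5.41, 5.10 and 5.42 in anti-LIF mice and 4.57, 4.47, 5.09 and 4.86 in control mice. The groups were apart by a margin of only 0.01, and the change was 0.51 (SE 0.16, limma adjusted p = 0.0684). Pcna, the sliding clamp of the DNA polymerases, had 8.64, 8.80, 8.41 and 8.42 in anti-LIF mice and 8.85, 8.90, 9.40 and 8.93 in control mice. All anti-LIF mice were lower, by a log2 change of -0.45 (SE 0.16, limma adjusted p = 0.0882), which is 1.37-fold. Both calls lay near the threshold and did not hold with each mouse left out in turn. Mcm5 was lost without anti-LIF replicate 6 or 8 or control replicate 1 or 2 (0.42 to 0.46, adjusted p 0.133 to 0.171). Pcna was lost without anti-LIF replicate 5, 7 or 8 or control replicate 2, 3 or 4 (-0.49 to -0.33, adjusted p 0.121 to 0.192). Mcm2, another helicase subunit, had 6.13, 5.89, 6.10 and 5.91 in anti-LIF mice and 5.88, 5.69, 5.96 and 6.13 in control mice. These ranges overlapped, with a change of 0.09 (SE 0.13, limma adjusted p = 0.697). The 12 genes that did not pass ran between -0.18 and 0.38, with adjusted p from 0.115 to 0.821. Among them Tyms, the enzyme that makes dTMP, was separate between the groups at 0.31 (adjusted p = 0.148).

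Set side by side per mouse, the mean of the 23 mitosis genes was 5.75, 5.74, 5.55 and 5.77 in anti-LIF mice and 5.45, 5.19, 5.52 and 5.37 in control mice. The mean of the 14 replication genes was 6.24, 6.34, 6.19 and 6.31 in anti-LIF mice and 6.11, 6.05, 6.19 and 6.17 in control mice. The mitosis means did not overlap, although anti-LIF replicate 7 and control replicate 3 were close, and the replication means overlapped at those same mice. The group means were 5.70 ± 0.11 and 5.38 ± 0.14 for mitosis and 6.27 ± 0.07 and 6.13 ± 0.06 for replication (anti-LIF, then control, SD, n = 4 each). The mitosis mean minus the replication mean was -0.57 ± 0.07 in anti-LIF and -0.75 ± 0.10 in control mice. The groups did not overlap, but the nearest mice were close, at -0.64 (anti-LIF replicate 7) and -0.66 (control replicate 1). The replication genes lay at higher levels than the mitosis genes. Over all genes the median change was -0.06 at levels between 5 and 6 and -0.16 between 6 and 7. The difference between the lists, and the part of level in it, was not tested. Anti-LIF replicate 7 was the lowest of its group for 14 of the 23 mitosis genes, and so was control replicate 2.

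**Figure D3:**
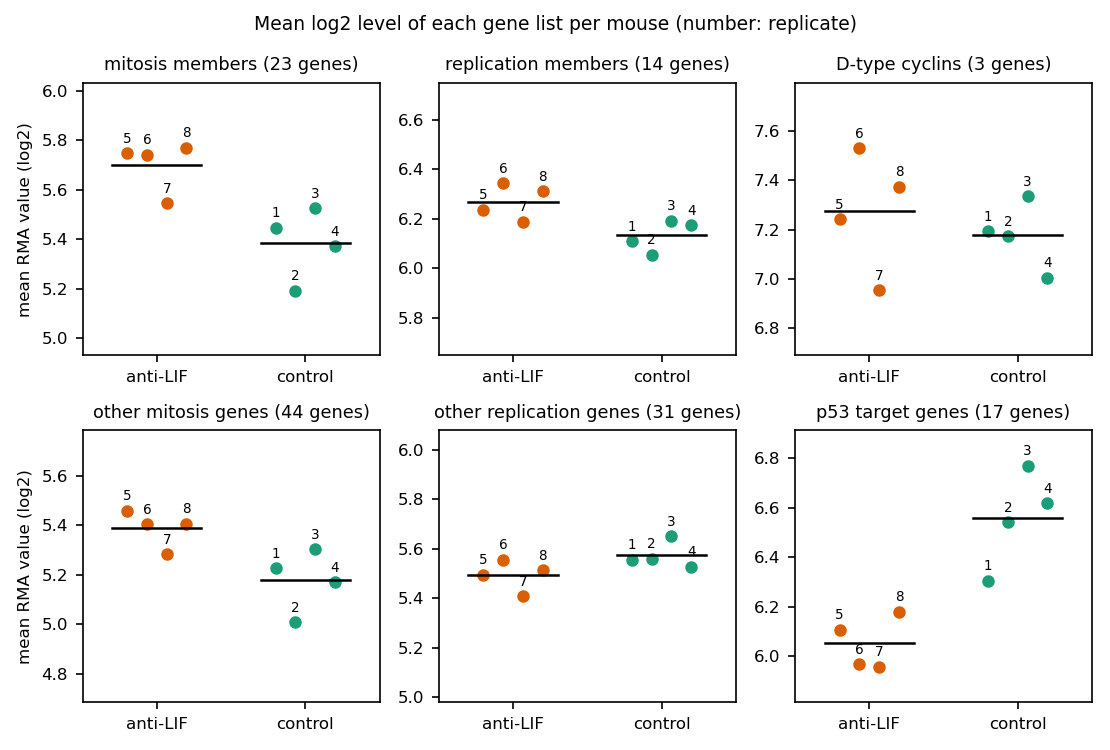
Mean log2 RMA value (y axis) of the mitosis, replication and D-type cyclin genes, and of 3 further gene lists described in the text (other mitosis, other replication and p53 target genes), in each mouse, anti-LIF left and control right; points are mice with their replicate number and lines are group means. Mitosis means lie at 5.55 to 5.77 in anti-LIF and 5.19 to 5.52 in control mice.

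The D-type cyclins, which couple growth signals to the cycle through CDK4 and CDK6, did not pass the test. Ccnd1 had 6.55, 6.85, 6.26 and 6.70 in anti-LIF mice and 6.64, 6.48, 6.82 and 6.29 in control mice. Ccnd2 had 8.63, 8.73, 8.29 and 8.56 in anti-LIF mice and 8.51, 8.39, 8.59 and 8.27 in control mice. Ccnd3 had 6.55, 7.01, 6.32 and 6.85 in anti-LIF mice and 6.43, 6.64, 6.59 and 6.46 in control mice. In each of the 3 genes the groups overlapped, and anti-LIF replicate 7 was the lowest anti-LIF mouse. The changes and their 95% intervals were 0.03 (-0.33 to 0.39) for Ccnd1, 0.12 (-0.18 to 0.41) for Ccnd2 and 0.15 (-0.20 to 0.50) for Ccnd3, with limma adjusted p of 0.930, 0.630 and 0.583. These intervals do not show that the genes were equal in both groups.

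Cdkn1a, the gene of the CDK inhibitor p21, had the largest change of the 43 genes. It had 7.89, 8.55, 8.15 and 8.55 in anti-LIF mice and 9.60, 9.97, 10.57 and 10.19 in control mice. The groups were 1.05 apart at their nearest mice. The change was -1.80 (SE 0.21, 3.48-fold lower, limma adjusted p = 0.0013), and it lay between -1.96 and -1.64 under every alternative run. Cdkn1a is a target of p53. A list of other p53 target genes also named Trp53, the gene of p53 itself, and 17 of its genes were measured. Of these, 8 were lower (47.1%) and 0 were higher, against 11.0% and 5.79% of all genes, and the median was -0.52. Plk2 (-1.65, limma adjusted p = 0.0061), Sesn2 (-1.16, adjusted p = 0.0101), Trp53inp1 (-0.94, adjusted p = 0.0202) and Btg2 (-0.91, adjusted p = 0.0241) changed the most. Several of these genes are known to answer other signals too: Sesn2 answers the stress factor ATF4, and Plk2 and Btg2 are induced early by growth factors. Of the 9 myeloid markers 6 were lower in the same mice, among them Cd68 (-1.41) and Cd14 (-1.58). Lyz2 (-0.09, limma adjusted p = 0.691), Itgam (-0.17, adjusted p = 0.590) and Csf1r (-0.33, adjusted p = 0.385) did not pass. Their part in the Cdkn1a result was not tested.

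Among 29 other CDKs, CDK inhibitors and genes of the RB and E2F families, 3 were higher (10.3%) and 4 were lower (13.8%). These shares lay near those of all genes (5.79% and 11.0%), and the median was -0.07. Rb1, whose protein holds E2F factors, was at -1.04 (SE 0.16, limma adjusted p = 0.0044), and Cdkn1b, the gene of the CDK inhibitor p27, was at -0.62 (SE 0.15, adjusted p = 0.0218). Lin54, a DNA-binding subunit of the DREAM complex (-0.57), and Fbxw7, a ubiquitin ligase subunit that targets cyclin E (-0.43), were also lower. E2f7 (0.61), E2f1 (0.53) and E2f4 (0.44) were higher; E2f1 activates replication genes, and E2f4 and E2f7 act mainly as repressors. Several of these calls did not hold with each mouse left out in turn. E2f1 was lost without any 1 anti-LIF mouse or control replicate 2 or 4 (adjusted p 0.124 to 0.200), E2f7 without anti-LIF replicate 8 or control replicate 2, 3 or 4 (adjusted p 0.101 to 0.113), and E2f4 without anti-LIF replicate 6 or control replicate 2 (adjusted p 0.1003 to 0.106), and the list held 0 to 3 higher genes with 1 mouse left out. Lin54 was lost without anti-LIF replicate 5, 7 or 8 or control replicate 3 or 4, and Fbxw7 without these mice or control replicate 2, which left 2 to 4 lower genes.

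Other genes of mitosis and replication were taken from lists by name. Of 44 other mitosis genes 11 were higher (25%) and 3 were lower (6.82%), against 5.79% and 11.0% of all genes, and the median was 0.24. The largest rises were Kif22 (0.79, limma adjusted p = 0.0279), a chromosome motor, Hmmr (0.63), a spindle protein, Kif2c (0.52), a microtubule depolymerase, and Cdca2 (0.51). The 3 lower genes were Wee1 (-1.21, limma adjusted p = 0.0088), the kinase that restrains Cdk1, Bub3 (-0.75), a checkpoint protein, and Pttg1 (-0.60), securin. The count of higher genes ran between 3 and 11 with 1 mouse left out, with 3 without control replicate 2, 4 without anti-LIF replicate 5 or 8, 6 without anti-LIF replicate 6 and 7 without control replicate 4. Kif2c was lost without anti-LIF replicate 5, 6 or 8 or control replicate 2 or 3 (adjusted p 0.117 to 0.147). Of 31 other replication genes 0 were higher and 2 were lower (6.45%, against 11.0% of all genes), with a median of -0.05. The 2 were Orc2, a subunit of the origin recognition complex (-0.88, limma adjusted p = 0.0041), and Rpa3, of the single-strand binding complex (-0.50, adjusted p = 0.0645). Rpa3 was lost without anti-LIF replicate 5, 6 or 8 or control replicate 1, 3 or 4 (adjusted p 0.104 to 0.151). With the first lists added, 19 of 67 mitosis genes were higher (28.4%) and 3 were lower (4.48%). Of 45 replication genes, 1 was higher (2.22%) and 3 were lower (6.67%), against 5.79% and 11.0% of all genes. The 19 higher mitosis genes became 9 without control replicate 2, 11 without anti-LIF replicate 5 or 8 and 12 without anti-LIF replicate 6, and 9 at an adjusted p of 0.05. With 1 mouse left out the replication genes held 0 to 2 higher and 1 to 2 lower, with 0 higher without anti-LIF replicate 6 or 8 or control replicate 1 or 2, 2 higher without anti-LIF replicate 7 or control replicate 3, and 1 lower without anti-LIF replicate 5 or 8 or control replicate 3 or 4.

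**Figure D4:**
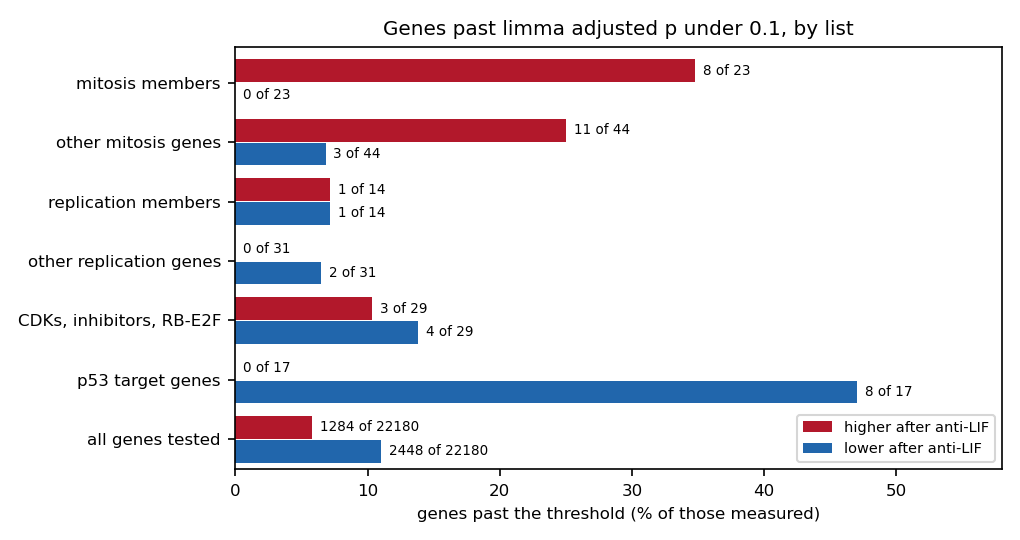
Percent of the measured genes (x axis) called higher or lower in anti-LIF cells in each list, beside all genes tested (5.79% higher, 11.0% lower). Mitosis members stand at 34.8% higher, and p53 target genes at 47.1% lower.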

How the data were processed

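CD11b+ cells of 4 anti-LIF and 4 control mice were profiled on Affymetrix Mouse Gene 2.1 ST arrays. The authors deposited log2 intensities normalized by RMA, and their processing notes name R 3.1.2; the sources used here do not give the library files of the RMA step. No scanner file was used, so no background level can be stated. Of 41345 features, 23521 had 1 gene symbol in the platform annotation, 1820 had several and 16004 had none. Features with 1 symbol were averaged per symbol, which gave 22180 genes; 1082 had several features.

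The test was two-sided limma 3.58.1 (lmFit, then eBayes, in R 4.3.3), with Benjamini-Hochberg adjustment over all genes and the study's threshold of 0.1. No filter on low values was used. The script was tested on simulated data with 100 genes changed at each of 2 sizes. It called 22% of log2 changes of 0.5 and 71% of log2 changes of 1. Many more genes were called in the real data, so these shares can differ there. The methods name paired samples but not the pairs, so none entered. The p-values weigh the difference between the groups against the spread between mice, which eBayes moderates across genes. Members and lists were chosen with earlier results of these data known, so list counts are descriptions. Genes are named as follows: all members, and up to 4 genes a direction from each pathway list. Dim probes compress changes, and probes shared by related genes cannot be told apart.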

Additional observations from a re-analysis of the deposited data

Results flagged for a closer look

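In 7 of 150 groups of 4 mice, 1 mouse lay far from the other 3 (Dixon's test on gap over range), and chance flags about 1 in 20 groups. Control replicate 3 had 9.40 for Pcna, against 8.85 to 8.93 in the other control mice. The same mouse had 6.74 for Mcm4 (others 6.84 to 6.86) and 7.83 for Rb1 (others 7.15 to 7.20). Control replicate 2 had 4.96 for Cenpf, with the other control mice at 5.24 to 5.29. Anti-LIF replicate 7 had 4.58 for Plk1 (others 5.02 to 5.07) and a mean of 5.55 over the mitosis genes (others 5.74 to 5.77). Anti-LIF replicate 8 had 5.75 for Birc5, against 5.37 to 5.38 in the other anti-LIF mice.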

How the results depend on the processing

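Of the 11 genes that passed the test, 7 kept their call under all 16 alternatives run, and Mcm5, Pcna, Aurka and Ccnb2 lost it at least once. The count of higher genes was 16 when only genes above the median level were tested, and 6 to 10 with 1 mouse left out. With only genes above the median level, 41 of the cell cycle genes were tested. The share of all tested genes called higher rose there too, to 10.1% from 5.79%, and 27.95% were lower. The count of lower genes was 1 with each feature on its own, with quantile normalization repeated and at an adjusted p of 0.05, and 1 to 2 with 1 mouse left out. The replication median was 0.24 with quantile normalization repeated and 0.069 with arrays centred, where 6 of the other mitosis genes, and 13 of the 67 mitosis genes in all, were higher. Of the 32 genes that did not pass, 7 were called higher at least once: Kif11 under 6 alternatives, Kif23 under 5, Rrm2 and Prc1 under 3, Tyms and Bub1 under 2 and Foxm1 under 1. Another 6 turned sign at least once. Ccne1 was at -0.014 with quantile normalization repeated and at -0.0073 with arrays centred, where Bub1b was at -0.040 and Ccnd1 at -0.038, and Ube2c was at 0.019 with array weights. With 1 mouse left out, Ccnd1 ran between -0.060 and 0.14, Ccne1 between -0.018 and 0.16, Aurkb between -0.16 and 0.084, Bub1b between -0.063 and 0.10, Ccna2 between -0.017 and 0.34 and Ube2c between -0.31 and 0.062. The causes were not tested. Over all genes, the share higher was 3.62% without control replicate 3, 3.79% without anti-LIF replicate 7 and 3.81% without control replicate 2. Centring moved the median of all genes to -0.04. No paired analysis was possible because the labels number the anti-LIF mice 5 to 8 and the control mice 1 to 4, with no shared numbers.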
